A study of Mus musculus with 6 samples.

Results

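Iron handling in irradiated skin was described here through the STEAP metalloreductases and the genes that carry, store and export iron. The 10 members are Steap1, Steap2, Steap3, Steap4, Tfrc, Trf, Slc11a1, Fth1, Slc40a1 and Cp. Steap4 was selected on its difference between the genotypes on these same arrays, and the others were added for their function. Each gene was taken from the array row that carries its symbol alone, and from the row with the highest mean over the 6 arrays where there were several. In this way 9 of the 10 members had a value, among 35556 rows in all, of which 21789 carry 1 gene symbol. No row with the symbol Slc11a1 was analysed here. The differences of the members are therefore given as descriptions, with their errors and with no p-value.

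The arrays hold dorsal skin of 3 Cbl-b-/- mice and 3 WT mice on the BL6 background, sex and age matched, with the ages not given in the sources used here. Cbl-b is an E3 ubiquitin ligase that restrains signaling from immune and growth factor receptors, and the submitters' labels spell the knockout clb-b -/-. All 6 mice were shaved 1 day before and exposed once to 80 mJ/cm2 of UVB, and their skin was taken 24 h later, so both groups are irradiated and no unirradiated skin was analysed here. The comparison asks how the skin transcriptome differs without Cbl-b after the same UVB dose. Whole skin mixes many cell types, and in such a bulk sample fewer cells of a type and less RNA per cell cannot be told apart.

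Cells take up iron bound to transferrin through the transferrin receptor, and a ferric ion must be reduced to the ferrous form before it can cross a membrane. STEAP proteins carry out this reduction in endosomes and at the cell surface, for copper as well as iron. Ferritin stores what is not used, ferroportin exports it, and the ferroxidase ceruloplasmin oxidizes the exported iron so that transferrin can bind it again. Inflammation is known to redirect these steps, and Steap4 was first described as a gene induced by tumor necrosis factor in fat cells.

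Cblb itself, the inactivated gene, averaged 8.64 ± 0.05 on the log2 scale in Cbl-b-/- skin and 9.76 ± 0.13 in WT skin (SD, n = 3 each), and the genotypes did not overlap. Array medians lay between 6.30 and 6.34, and correlations between arrays across rows between 0.980 and 0.993. WT replicate 3 stood apart by its hair follicle genes, whose mean level was 9.61, against 5.39 to 7.26 on the other 5 arrays. As a guide to low signal, the 95th percentile of the mean levels of 1035 olfactory receptor rows was 5.43, and all 9 members had a mean above it.

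Steap4, a plasma membrane and endosomal reductase of ferric and cupric ions, was lower in Cbl-b-/- skin. Its log2 values were 10.21, 9.72 and 9.64 in Cbl-b-/- skin, against 11.04, 10.78 and 10.51 in WT skin. Every Cbl-b-/- array lay below every WT array. The means were 9.86 ± 0.31 in Cbl-b-/- and 10.78 ± 0.26 in WT skin (SD, n = 3 each). The log2 difference of −0.92 (standard error 0.20) corresponds to 1.89-fold. Over the fits that left out a single array it was largest, at −1.10, without Cbl-b-/- replicate 1, and smallest, at −0.79, when WT replicate 1 was dropped. It was −1.05 without WT replicate 3.

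Steap1, a family member that lacks the reductase domain of the others and works beside them, had low signal. Its log2 values were 5.36, 6.18 and 5.09 in Cbl-b-/- skin, against 6.38, 6.12 and 6.22 in WT skin. Cbl-b-/- replicate 2 lay within the WT range, and the other 2 Cbl-b-/- values lay below the low-signal guide of 5.43. The log2 difference was −0.70 (standard error 0.27). With limma it met the study's thresholds, an unadjusted p under 0.05 with at least a 1.5-fold difference. It missed them in the per-row test that the study's methods name, and in limma once Cbl-b-/- replicate 1 (−0.61) or 3 (−0.47), or any WT replicate, 1 (−0.63), 2 (−0.76) or 3 (−0.71), was left out.

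Steap2, a ferric and cupric reductase, lay in the same direction with more overlap. On the log2 scale it measured 7.39, 7.67 and 7.27 in Cbl-b-/- skin, against 8.09, 7.60 and 7.63 in WT skin, and Cbl-b-/- replicate 2 stood above 2 of the WT arrays. The log2 difference was −0.33 (standard error 0.17), under the fold threshold. A further row of Steap2 stood at 3.56 in Cbl-b-/- and 3.60 in WT skin, below the low-signal guide.

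Steap3, the endosomal ferrireductase of the transferrin cycle in red cell precursors, gave values of 8.60, 8.59 and 8.97 in Cbl-b-/- skin, against 8.94, 8.47 and 8.42 in WT skin. The groups overlapped, and the log2 difference of 0.11 was smaller than its standard error of 0.18. Without Cbl-b-/- replicate 3 the sign turned, to −0.018. Among the 4 family members, Steap1, Steap2 and Steap4 are on chromosome 5, whereas Steap3 is on chromosome 1. In the RefSeq annotation of GRCm38.p6, 0 protein-coding genes lie between Steap1 and Steap2 and 3 between Steap1 and Steap4.

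**Figure D1:**
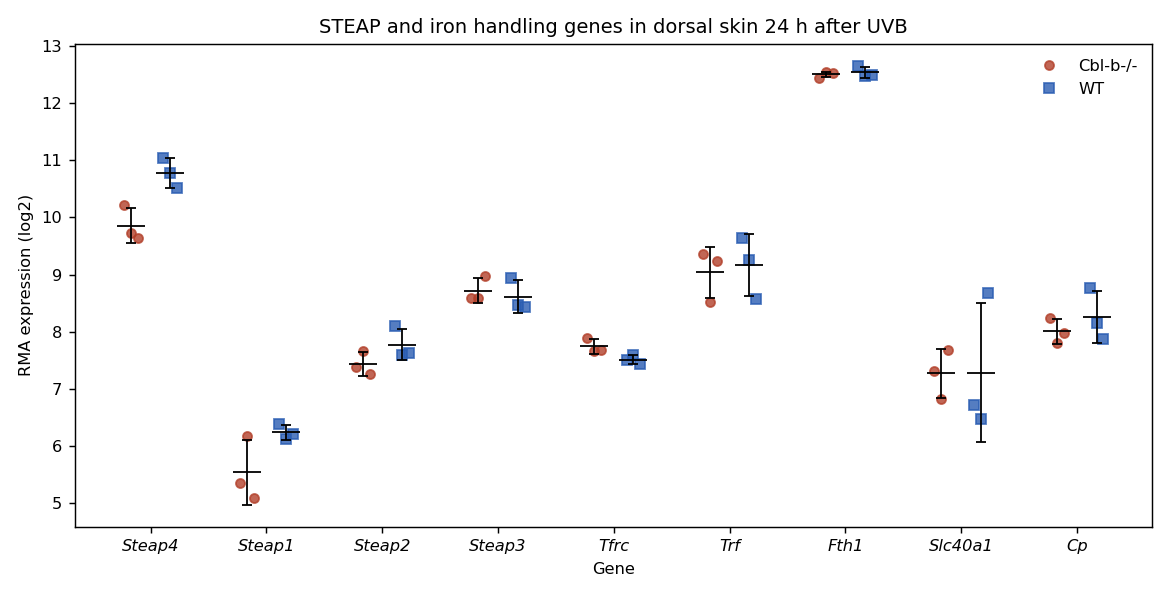
RMA expression (log2, vertical axis) of the 9 measured genes (horizontal axis) in Cbl-b-/- (circles, left of each pair) and WT (squares) skin 24 h after UVB. Each point is 1 array and each bar a mean, with the SD of 3 arrays as whiskers; for Steap4 and Tfrc the genotypes do not overlap.

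The promoter of Steap4 is shown beside that of Steap1 because these are the 2 members that met the study's thresholds and both lie on chromosome 5. Sequences are RefSeq's, from 250 bases before to 50 bases after the start of the gene (GRCm38.p6, 5′ to 3′ on the gene's strand), and capitals mark matches on either strand to 4 motifs of factors that act downstream of cytokines. These are STAT (TTCNNNGAA), C/EBP (TTGCNNAA), AP-1 (TGANTCA) and the NF-kappaB consensus.
Steap4, chr5:7960222-7960521, plus strand: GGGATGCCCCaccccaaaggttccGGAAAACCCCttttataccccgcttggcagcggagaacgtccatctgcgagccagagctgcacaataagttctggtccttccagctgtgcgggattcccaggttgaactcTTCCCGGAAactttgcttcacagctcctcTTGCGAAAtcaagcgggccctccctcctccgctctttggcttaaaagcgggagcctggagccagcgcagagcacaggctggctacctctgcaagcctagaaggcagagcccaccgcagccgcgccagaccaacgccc
Steap1, chr5:5749268-5749567, minus strand: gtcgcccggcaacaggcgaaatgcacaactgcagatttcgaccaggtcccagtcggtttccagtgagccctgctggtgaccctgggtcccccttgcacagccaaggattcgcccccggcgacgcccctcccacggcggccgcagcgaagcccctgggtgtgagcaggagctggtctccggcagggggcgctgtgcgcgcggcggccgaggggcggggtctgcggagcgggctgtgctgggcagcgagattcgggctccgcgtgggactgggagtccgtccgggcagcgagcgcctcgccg
The Steap4 window holds 1 STAT match, whose first base lies 116 bases before the start, 1 C/EBP match 87 bases before it and 2 NF-kappaB matches 250 and 226 bases before it. No letters of the Steap1 window match. Over 32851 promoter windows of this length, 8.30% hold the STAT motif, 10.8% C/EBP, 7.81% AP-1 and 4.51% NF-kappaB. STAT, C/EBP and NF-kappaB matches stand together in 16 windows (0.0487%), a combination counted because it was seen in the Steap4 window. The matches in the Steap4 window do not overlap one another. Of the 10 members, all but Trf and Slc40a1 have windows in this table, with 16 start sites, and 7 of the start sites hold a match. Besides Steap4, matches lie in windows of Steap2 (STAT and NF-kappaB), Steap3 (C/EBP and NF-kappaB), Fth1 (C/EBP) and Cp (AP-1 and C/EBP). Matches are thus found in members that were lower and in Steap3, which was not. A match of letters is a description and not a measured binding site.

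Tfrc, the transferrin receptor that brings iron into the cell, stood higher in Cbl-b-/- skin by a small amount. Its log2 values were 7.89, 7.66 and 7.68 in Cbl-b-/- skin, against 7.51, 7.60 and 7.43 in WT skin. All 3 Cbl-b-/- arrays lay above all 3 WT arrays, but the nearest values lay close together. The log2 difference was 0.23 (standard error 0.10), or 1.17-fold, and the fits that left out a single array gave 0.16 to 0.27. Tfrc is on chromosome 16, as is Cblb.

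Trf, which encodes transferrin, the iron carrier of plasma, had log2 values of 9.36, 8.53 and 9.24 in Cbl-b-/- skin, against 9.64, 9.26 and 8.58 in WT skin. Each genotype held 1 low array, and the log2 difference was −0.12 (standard error 0.33). The sign turned when Cbl-b-/- replicate 2 (0.14) or WT replicate 1 (0.12) was left out. The same 2 low arrays had the lowest mean level of 9 measured adipocyte markers, 7.87 in Cbl-b-/- replicate 2 and 8.37 in WT replicate 3. On the remaining arrays these markers, all above the low-signal guide, averaged 9.57 and 9.43 in Cbl-b-/- skin and 9.10 and 8.77 in WT skin. The part of fat tissue in the Trf values was not tested.

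Storage and export differed less between genotypes than between arrays. Fth1, the heavy chain of ferritin that oxidizes iron for storage, had log2 values of 12.44, 12.54 and 12.52 in Cbl-b-/- skin, against 12.65, 12.48 and 12.50 in WT skin. Its range over the 6 arrays was the smallest of the members, at 0.21, and its log2 difference was −0.04 (standard error 0.08), with a turn of sign to 0.014 without WT replicate 1. Cp, the ferroxidase ceruloplasmin, an acute-phase protein of plasma, had log2 values of 8.24, 7.81 and 7.99 in Cbl-b-/- skin, against 8.76, 8.16 and 7.87 in WT skin. The groups overlapped at a log2 difference of −0.25 (standard error 0.24). Without WT replicate 1 the difference was 0.00012, and without WT replicate 3 it was −0.45.

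Slc40a1, which encodes ferroportin, the exporter of cellular iron, varied most. Its log2 values were 7.31, 6.83 and 7.68 in Cbl-b-/- skin, against 6.72, 6.47 and 8.68 in WT skin. The highest and the lowest value were both WT, 2.20 apart, and the log2 difference was −0.02 (standard error 0.58). WT replicate 3, the highest array for Slc40a1, is also the array with the highest level of the 9 measured hair follicle markers, given above. Without that array the log2 difference was 0.68, past the study's thresholds, whereas without WT replicate 2 it was −0.42. The part of the hair follicle in the Slc40a1 values was not tested.

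**Figure D2:**
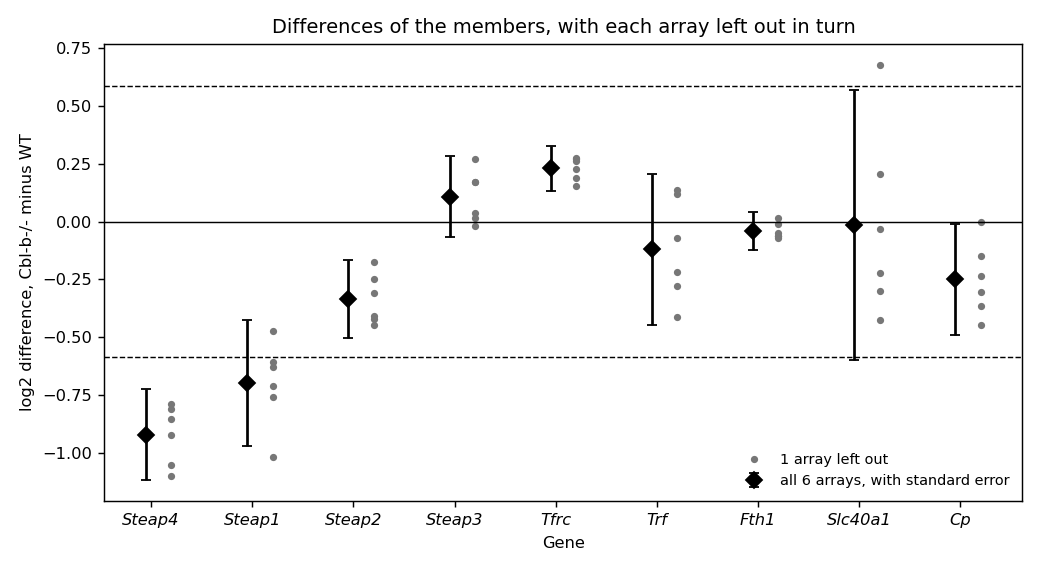
Log2 difference (vertical axis, Cbl-b-/- minus WT) of the 9 measured genes (horizontal axis) from limma over 6 arrays, with its standard error (diamonds), and with each array left out in turn (grey points). Dashed lines mark 1.5-fold; every grey point of Steap4 lies below the lower line, and those of Slc40a1 run from −0.42 to 0.68.

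**Figure D3:**
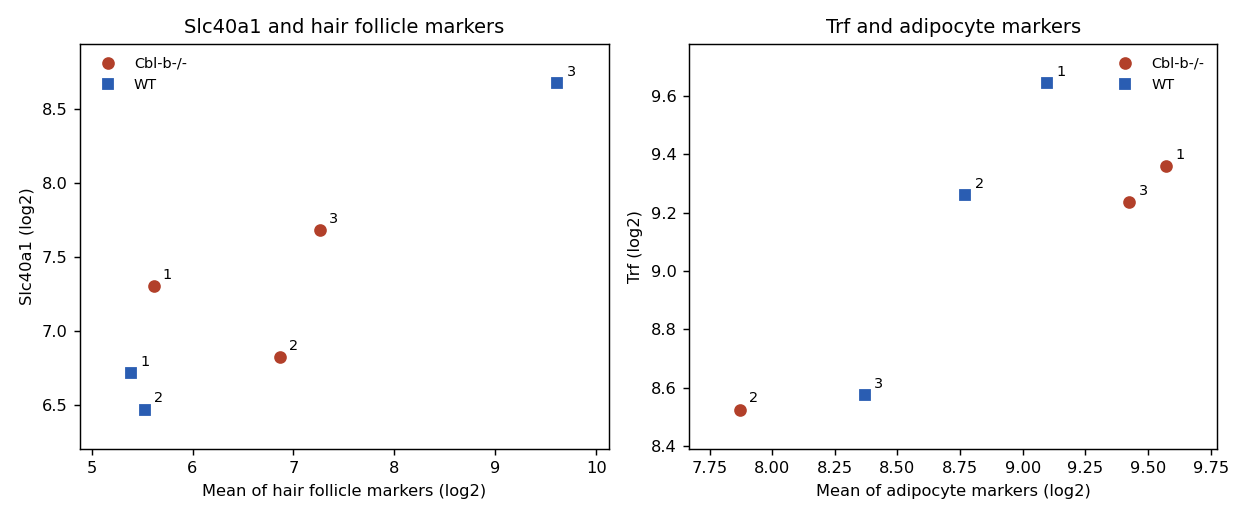
Left, Slc40a1 (log2, vertical axis) against the mean of 9 hair follicle markers (log2, horizontal axis). Right, Trf against the mean of 9 adipocyte markers, with Cbl-b-/- arrays as circles, WT arrays as squares and replicate numbers beside the points; WT replicate 3 is highest on both axes on the left and Cbl-b-/- replicate 2 lowest on both axes on the right.

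In all, 2 of the 9 measured members met the study's thresholds, Steap4 and Steap1, both lower, where 434 of all 35556 rows (1.22%) met them, 0.945% lower and 0.276% higher. The genotypes did not overlap in Steap4, with Cbl-b-/- below WT as in 4.89% of all rows, and in Tfrc, with Cbl-b-/- above WT as in 8.66% of all rows. Since Steap4 was picked from this contrast, nothing is read from these counts. The median log2 difference of the members was −0.12, and −0.08 without Steap4, beside 0.02 over all rows. Steap4, Steap1, Steap2, Cp, Trf, Fth1 and Slc40a1 had differences below 0, and Steap3 and Tfrc above 0. Without WT replicate 3 the median was −0.41, and without WT replicate 1 it was 0.00012.

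Beyond the members, 51 of 53 further iron handling genes had a row, and they moved in both directions. The results of Lcn2 and Hmox1 on these arrays were known when the list was made, so its counts are descriptions. In limma 2 of the 51 were lower and 1 was higher in Cbl-b-/- skin at the study's thresholds, and 48 did not meet them. Of all rows, 0.945% were lower and 0.276% higher at these thresholds. In the per-row test that the methods name, 0 of the 51 met them. At an unadjusted limma p under 0.05 there were 4 genes, 2 in each direction, where 6.55% of all rows passed. At an adjusted p under 0.05 there was 0 in limma, where 1 row of the whole table (0.00281%) passed, and 0 in the methods' per-row test. The median log2 difference was 0.03, and the differences ran from −0.95 to 0.63. The genotypes did not overlap in 8 of the 51, with Cbl-b-/- below WT in 3 and above WT in 5, beside 4.89% and 8.66% of all rows, shares close to those of the list.

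Among the importers of iron that is not bound to transferrin, Slc39a14 and Slc39a8 stood below WT on every Cbl-b-/- array. Slc39a14 encodes ZIP14, a carrier of zinc, iron and manganese that inflammation induces in liver. On the log2 scale it measured 9.47, 10.01 and 8.29 in Cbl-b-/- skin, against 10.23, 10.32 and 10.07 in WT skin. All Cbl-b-/- values lay below the WT values, but spread over a wider range, and the log2 difference was −0.95 (limma standard error 0.41, adjusted p = 0.749). It missed the thresholds, and met them after cyclic loess (−0.96) and without Cbl-b-/- replicate 2 (−1.33). Slc39a8 encodes ZIP8, a related carrier. On the log2 scale it measured 8.34, 8.002 and 8.21 in Cbl-b-/- skin, against 8.57, 8.69 and 9.51 in WT skin, again with no overlap. Its log2 difference was −0.74 (standard error 0.25, adjusted p = 0.743 from limma), met the thresholds, and missed them in the per-row test of the methods and without replicate 2 (−0.65) or 3 (−0.76) of Cbl-b-/- skin or replicate 3 of WT skin (−0.45). Slc11a2, the endosomal carrier DMT1 that takes over the ferrous ion after reduction, stood at −0.24 (standard error 0.11, adjusted p = 0.750 from limma).

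In the genes of siderophore binding and heme breakdown, Lcn2 was lower and Hmox1 higher. Lcn2, lipocalin 2, which withholds iron from bacteria by binding their siderophores, had log2 values of 10.46, 10.70 and 9.59 in Cbl-b-/- skin, against 11.38, 11.17 and 10.73 in WT skin. It met the thresholds at a log2 difference of −0.85 (standard error 0.31, adjusted p = 0.749 from limma). Hmox1, heme oxygenase 1, which frees iron from heme, had log2 values of 11.09, 10.94 and 10.89 in Cbl-b-/- skin, against 10.88, 10.17 and 9.98 in WT skin. Its log2 difference was 0.63 (standard error 0.23, adjusted p = 0.749 from limma), and the nearest values of the genotypes almost touched. Both missed the thresholds in the per-row test of the methods. In limma, Lcn2 missed them without Cbl-b-/- replicate 3 (−0.52), WT replicate 1 (−0.70) or WT replicate 2 (−0.81), and Hmox1 missed them without any array but WT replicate 1 (0.44 to 0.67). Slc22a17, a lipocalin 2 receptor, passed the unadjusted p at 1.17-fold higher (log2 difference 0.23, standard error 0.09, adjusted p = 0.749 from limma).

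Cd163, the macrophage receptor for hemoglobin bound to haptoglobin, lay just past 1.5-fold at −0.59 (standard error 0.30, adjusted p = 0.755 from limma), with overlapping genotypes.

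Storage, sensing, the hepcidin axis, mitochondrial genes, ferroxidases and further reductases stayed under the fold threshold. The ferritin light chain gene Ftl1 stood at 0.14 (standard error 0.14), and the 5 genes of storage and ferritin turnover ran from −0.02 to 0.14. The 3 genes of intracellular iron sensing, Aco1, Ireb2 and Fbxl5, whose proteins set the translation and stability of ferritin and transferrin receptor messages, ran from −0.18 to −0.09. Of the hepcidin axis, the 9 genes ran from −0.31 to 0.16, and Hamp, the hormone hepcidin that degrades ferroportin, did not lie above the low-signal guide. The 8 measured genes of mitochondrial iron, heme and iron-sulfur clusters ran from −0.34 to 0.15. Heph and Hephl1, ferroxidases like ceruloplasmin, stood at −0.16 and −0.10. The 3 further reductases, Cybrd1, Frrs1 and Cyb561, ran from −0.27 to −0.08, and Cybrd1, with a standard error of 0.55, was highest in WT replicate 3.

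**Figure D4:**
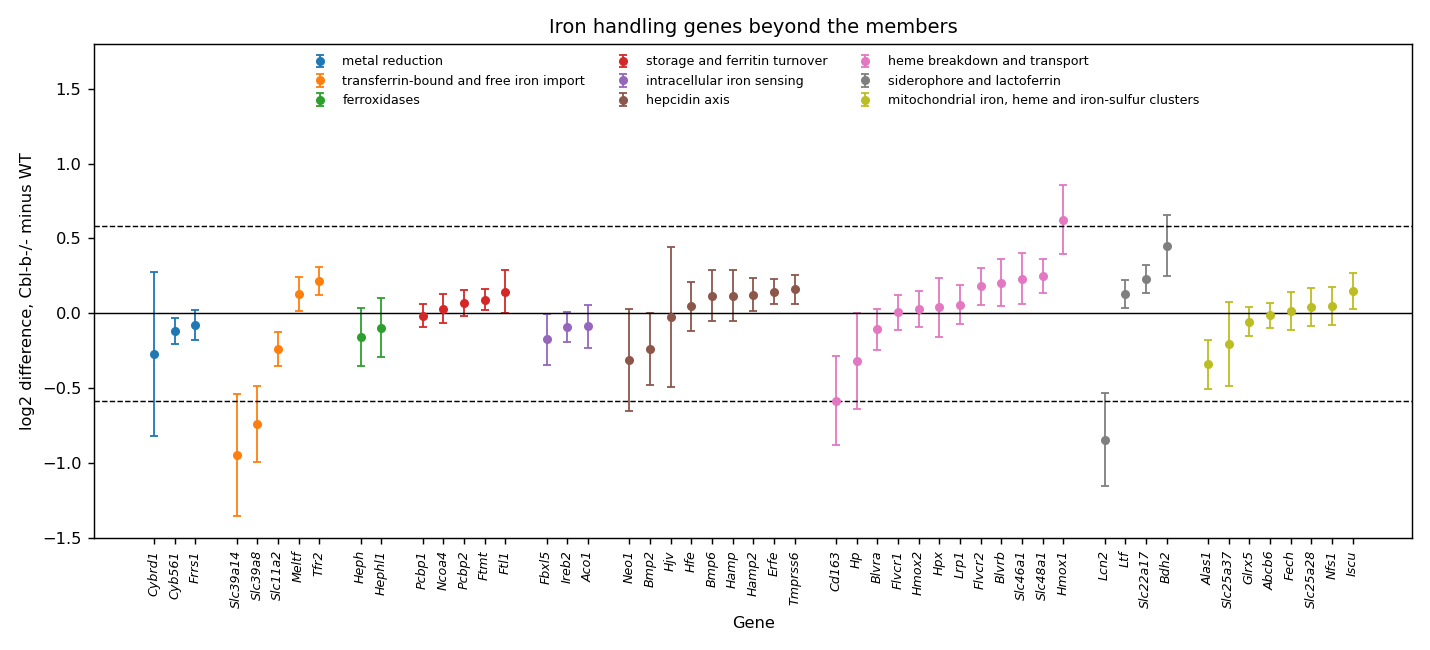
Log2 difference (Cbl-b-/- minus WT, on the vertical axis) of 51 iron handling genes beyond the members, by role (colors) along the horizontal axis. Error bars are standard errors from limma, and 1.5-fold is dashed; Slc39a14, Slc39a8, Lcn2 and, narrowly, Cd163 lie below the lower line, and Hmox1 above the upper one.

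STEAP proteins also reduce copper, and 0 of 16 copper handling genes met the study's thresholds or had an adjusted p under 0.05, either by limma or by the per-row test of the methods. At an unadjusted p under 0.05, limma passed 1, Mt1, where 6.55% of all rows passed in limma. The methods' per-row test passed 3 at this level, where it passed 2481 of all 35556 rows. Mt1, a metallothionein that binds zinc and copper, had log2 values of 12.37, 12.35 and 12.34 in Cbl-b-/- skin, against 12.69, 12.60 and 12.52 in WT skin. The difference was small and even over the arrays, at −0.25 (standard error 0.08, adjusted p = 0.740 from limma). Mt2, its close relative, stood at −0.13 (standard error 0.07). Mt4, a metallothionein of stratified epithelium, stood at −0.79 with a standard error of 0.92, and at 0.25 without WT replicate 3, the array high in hair follicle genes. Lox, a copper enzyme that crosslinks collagen, stood at 0.44 (standard error 0.24, adjusted p = 0.767 from limma). The 9 genes of copper transport and chaperones ran from −0.16 to 0.06. The genotypes did not overlap in 4 of the 16 copper handling genes, Atp7a, Cox17, Mt1 and Mt2. All 4 had Cbl-b-/- below WT, as in 4.89% of all rows, and Cox17 did not lie above the low-signal guide.

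Cytokines and acute-phase genes were listed because Steap4, Lcn2 and Slc39a14 are known cytokine targets. The results of Saa3 and Lcn2 on these arrays were known when the list was made, so nothing is read from its counts. Of 17 measured genes, Saa3 alone met the study's thresholds, as lower, where 0.945% of all rows were lower at them. By either limma or the per-row test of the methods, 0 had an adjusted p under 0.05. Limma passed 3 at an unadjusted p under 0.05, where 6.55% of all rows passed. The genotypes did not overlap in 4, with Cbl-b-/- below WT in 2 and above WT in 2, beside 4.89% and 8.66% of all rows. Saa3, an acute-phase serum amyloid, had log2 values of 7.81, 8.66 and 7.31 in Cbl-b-/- skin, against 10.80, 10.01 and 9.44 in WT skin, a log2 difference of −2.15 (limma standard error 0.44, adjusted p = 0.602). Of the cytokine genes above the low-signal guide, Lif alone had no overlap, with Cbl-b-/- above WT by 0.13 (standard error 0.10). Tnf stood at 0.13 (standard error 0.16), Il1b at −0.13 (standard error 0.53) and Il6 at −0.06 (standard error 0.84). At an unadjusted p under 0.05, Il17a (0.20) and Saa1 (−0.52) also passed, but neither had a mean above the low-signal guide. Socs3, a feedback inhibitor of cytokine receptors, stood at −0.73 (standard error 0.47), with Cbl-b-/- values of 8.46, 9.53 and 7.48 on both sides of the WT values of 9.08, 9.37 and 9.19. Cxcl5, a neutrophil chemokine, ran from 4.50 to 8.57 in Cbl-b-/- skin and from 5.28 to 7.34 in WT skin. Without Cbl-b-/- replicate 2, the count at the thresholds was 4 (Saa1, Saa3, Socs3 and Cxcl5). Over all 35556 rows the count rose as well, from 434 with every array kept to 790 in that fit.

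That array, Cbl-b-/- replicate 2, had the highest mean level of 10 neutrophil markers, 8.04, against 6.53 and 6.19 in the other Cbl-b-/- arrays and 7.01 to 7.29 in WT skin. Of these markers 7 lie above the low-signal guide, and Ngp, Camp and Mpo do not. Steap4 in that array, at 9.72, lay between the other Cbl-b-/- values. The 10 macrophage markers, all above the guide, averaged 8.61 to 9.02 in Cbl-b-/- skin and 8.56 to 9.27 in WT skin. Their part in the Steap4 difference was not tested.

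**Figure D5:**
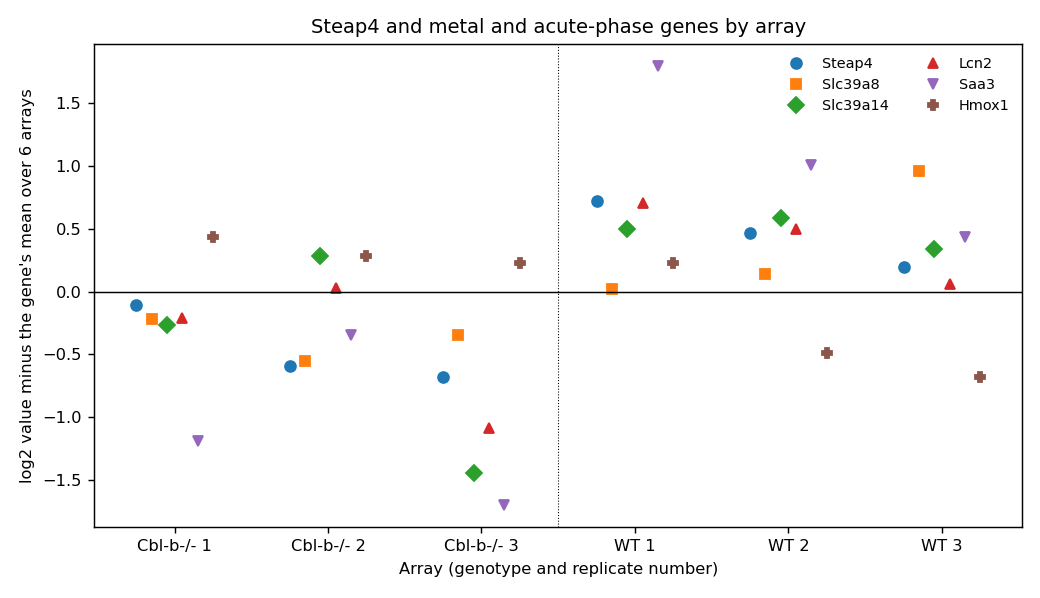
Log2 value minus each gene's own mean over 6 arrays (vertical axis) for Steap4, Slc39a8, Slc39a14, Lcn2, Saa3 and Hmox1, by array (horizontal axis, Cbl-b-/- left of the dotted line and WT right of it). In Cbl-b-/- replicate 3 Steap4, Slc39a14, Lcn2 and Saa3 are at their lowest, and Slc39a8 is highest in WT replicate 3.

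The rows whose pattern over the 6 arrays was most like that of Steap4 were found by the root mean square difference between mean-centred log2 values, which for Steap4 around its own mean was 0.52. Of the 5 nearest rows with 1 gene symbol, 4 carry Gm10590 and hold identical values (0.16), and the fifth is Cyp7b1, an oxysterol hydroxylase (0.16). Cyp7b1 had log2 values of 8.06, 7.70 and 7.20 in Cbl-b-/- skin, against 8.66, 8.76 and 8.29 in WT skin. Counted by gene, a choice made after those rows were seen, Cfb, complement factor B (0.18), Dubr (0.22) and Mir10a (0.24) followed. The mean level of Mir10a, 3.54, did not lie above the low-signal guide. Of the members, Cp (0.37) and Steap2 (0.38) were nearest to Steap4 and Slc40a1 (0.99) farthest. With 3 arrays of each genotype, any gene that differs by a like amount between the genotypes comes near by this measure.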

How the data were processed

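Affymetrix Mouse Gene 1.0 ST arrays were hybridized with RNA of dorsal skin, 1 array per mouse. The deposited values are log2 expression made by the authors with the robust multichip average in Partek, version 6.5 per the submitters' processing notes. Its steps are background correction, quantile normalization across arrays and median polish per transcript cluster. Such processing can compress differences of dim rows. Genes were named from the platform annotation, with symbols updated by Entrez ID. Genotypes were compared with limma 3.58.1 in R 4.3.3 on all 35556 rows, as Cbl-b-/- minus WT, with Benjamini-Hochberg adjustment over all rows. The method was tested on simulated data. Precision is limited by the number of arrays, and 3 against 3 cannot give a two-sided exact permutation p below 0.1.

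The members and lists were chosen with earlier results of these data known, those of Steap4, Saa3, Lcn2, Hmox1 and Cyp7b1 among them. Named were all members, each further list's genes with an unadjusted p under 0.05 and its 3 largest differences, and the 5 rows most like Steap4; other genes named were chosen by role after their values were seen. Alternatives were the methods' per-row test, an intensity trend, cyclic loess, median centring, 2 row filters, the mean of a gene's rows, a replicate block and leaving out each array.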

Additional observations from a re-analysis of the deposited data

How the results depend on the processing

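Under 14 alternatives, the log2 difference of Steap4 stayed between −1.10 and −0.79, a description, since the gene was chosen on these arrays. The count of members at the thresholds was 1 in the methods' per-row test and 1 with the replicate block, since Steap1 missed them. Without single arrays it was 1 to 2. Of these fits, Steap1 met the thresholds only without Cbl-b-/- replicate 2. Without WT replicate 3 the member beside Steap4 was Slc40a1, as higher (0.68). The 3 further iron handling genes at the thresholds (Slc39a8, Hmox1 and Lcn2) were 0 in the methods' per-row test and 0 to 3 without single arrays, at 0 without Cbl-b-/- replicate 3 and at 1 without WT replicate 2. They were 4, with Slc39a14 added, under the replicate block and after cyclic loess. Cytokine and acute-phase genes at the thresholds ranged from 1 to 4, and copper handling genes stayed at 0. The median of the members ranged from −0.41 to 0.00012 without single arrays. Over all rows, 434 met the thresholds, 267 in the methods' per-row test and 790 without Cbl-b-/- replicate 2. Cyclic loess and median centring turned no sign among the members. The labels do not say that a replicate number marks a shared litter or day. The deviations of same-numbered arrays from the genotype means correlated at 0.23, 0.092 and 0.25, and 5 of 6 arrays correlated best with their own number. The design states no pairing, and what same-numbered arrays share was not tested. With the replicate block 453 rows met the thresholds. Scanner background was not used here, so the olfactory receptor level is only a guide to dim rows such as Steap1.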

Other observations

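Of the marker lists not used above, keratinocytes of the epidermis averaged 11.34 to 11.38 in Cbl-b-/- skin and 10.96 to 11.42 in WT skin (6 markers), fibroblasts 10.38 to 10.55 in Cbl-b-/- and 10.55 to 10.79 in WT skin (6 markers), and blood endothelium 7.61 to 7.74 in Cbl-b-/- and 7.04 to 7.70 in WT skin (6 markers). Skeletal muscle markers averaged 9.29 to 10.50 in Cbl-b-/- and 9.79 to 10.70 in WT skin (8 markers), and erythroid markers 4.99 to 5.46 in Cbl-b-/- and 4.96 to 5.06 in WT skin (5 markers, of which Epb42, Klf1 and Rhag lay under the low-signal guide). The 4 measured Schwann cell markers averaged 7.69 to 7.76 in Cbl-b-/- and 7.33 to 7.65 in WT skin, the only list of markers whose genotypes did not overlap. Of these 4, S100b did not lie above the low-signal guide. Pmp22 alone had no overlap by itself, with Cbl-b-/- above WT as in 8.66% of all rows. Over all the marker lists, limma put 0 of the marker genes past the study's thresholds, where 1.22% of all rows met them. In limma 1 marker, the dim Klf1 of the erythroid list, passed at an unadjusted p under 0.05, where 6.55% of all rows passed. The methods' per-row test passed 2 of the erythroid markers at this level, where it passed 2481 of all 35556 rows.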
